A study of Mus musculus with 6 samples.

Results

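The synaptic vesicle release machinery was examined in cortex of wild-type mice that had received an adeno-associated virus carrying GFP-GA or GFP alone. Members were taken by gene symbol, as the synaptotagmins, synapsins, syntaxins, syntaxin-binding proteins, SNAP and VAMP proteins, RIM and Unc13 proteins, complexins and SV2 proteins, with Syp, Bsn and Pclo. The table of 18283 genes held 71 of them, in 12 families, and 69 are described. GFP-GA is green fluorescent protein fused to poly-GA, a repeat protein of glycine and alanine that is translated from the expanded C9orf72 repeat of amyotrophic lateral sclerosis and frontotemporal dementia. Each group had 3 libraries, all labelled wild type, cortex and 5 months, and the label does not say whether that time is an age or a time after injection. The promoter of the virus, its dose and the share of neurons that expressed the cargo are not stated in the labels, nor do these say that each library came from a separate animal. The p-values therefore measure the spread between these libraries, which may be technical. In whole cortex, fewer neurons and less RNA per neuron cannot be told apart.

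A nerve terminal releases transmitter when a vesicle fuses with the plasma membrane at the active zone. Fusion is driven by SNARE proteins, with synaptobrevin (Vamp1, Vamp2) on the vesicle pairing with a syntaxin (Stx1a) and SNAP-25 (Snap25) on the plasma membrane. Syntaxin-binding proteins and the Unc13 proteins regulate how this complex assembles, complexins hold and promote it, and synaptotagmins trigger fusion when calcium enters. RIM proteins, bassoon and piccolo build the release site, and synapsins keep a reserve of vesicles behind it. Relatives of the same SNAREs serve endosomes, lysosomes and the Golgi in every cell.

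Libraries held 16748754 to 17576017 expected counts, the number of reads that RSEM estimates for all genes together, and 2.02% to 2.10% of them came from the 69 release genes. Glutamatergic cortical markers were abundant in every library, as with Camk2a between 3668 and 4167 CPM (reads of a gene scaled to the size of the library). AAV-GFP replicate 3 had 19 reads from 14 genes on chromosome Y, where the other 5 libraries had 2047 to 2293. AAV-GFP replicates 1 and 2 lay at 22.2 and 18.02 on the principal component with most variance, at 32.5%, and the other 4 libraries lay between -18.3 and -3.99. The same 2 libraries had 37 and 34 reads from 8 genes of intestinal epithelium, against 109 to 152 in the other 4. Some values are therefore also given from a fit with a library set term, which holds AAV-GFP replicates 1 and 2 apart from the other 4 libraries. In that fit the contrast rests on AAV-GFP replicate 3 as its sole control. That control is also the library with 19 chromosome Y reads. Poly-GA and the difference in chromosome Y reads therefore cannot be told apart in that fit. No comparison could be made inside the pair set apart, since both are AAV-GFP libraries.

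No member of the release machinery passed the threshold for a difference between cortex with poly-GA and cortex with GFP alone. Of the 69 members, 65 had enough reads to be tested, and 0 had an adjusted p under 0.05 by edgeR's quasi-likelihood test, beside 0.0209% of the 14324 genes tested. DESeq2 and limma-voom also called 0 members. At an unadjusted p under 0.05 there were 2 members, Syt14 and Syt10, both lower with poly-GA. Among all tested genes 6.64% were at an unadjusted p under 0.05 in either direction and 3.45% were lower at that level, so the members' count stood below the first share and near the second. Without AAV-GFP replicate 3 the count of members at that level was 12 of 65, with 3 higher and 9 lower, beside 19.8% of all genes. It was 4 without AAV-GFP replicate 1, with 1 higher and 3 lower, beside 5.47% of all genes. With the library set term it was 3, all lower, beside 6.6% of all genes, and these were Stx3, Stx5a and Stxbp2 in place of Syt10 and Syt14. The log2 fold changes of AAV-GFP-GA over AAV-GFP ranged from -0.46 for Syt10 to 0.16 for Rims3 over the 65 members, with a median of -0.01. The median over all tested genes was -0.0039. Values were above 0 in 29 members and below 0 in 36.

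Intervals that covered no more than a 1.2-fold change up or down, at the 95% level, were found for 35 of 65 members, or 53.8%, and for 39.9% of all tested genes. They covered no more than a 1.5-fold change for 58 members, or 89.2%, and for 81.5% of all tested genes. Genes with few reads tend to have wider intervals, and these shares were not matched for level of expression. Summed over all members, the release machinery was at 20517, 19994 and 21198 CPM with poly-GA and 20572, 20456 and 20646 CPM without. The AAV-GFP-GA libraries included both the lowest and the highest of these sums. The groups did not overlap for 4 members, with Bsn, Stx6 and Syt13 higher and Syt14 lower, beside 11.9% of all tested genes whose groups did not overlap in either direction.

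**Figure D1:**
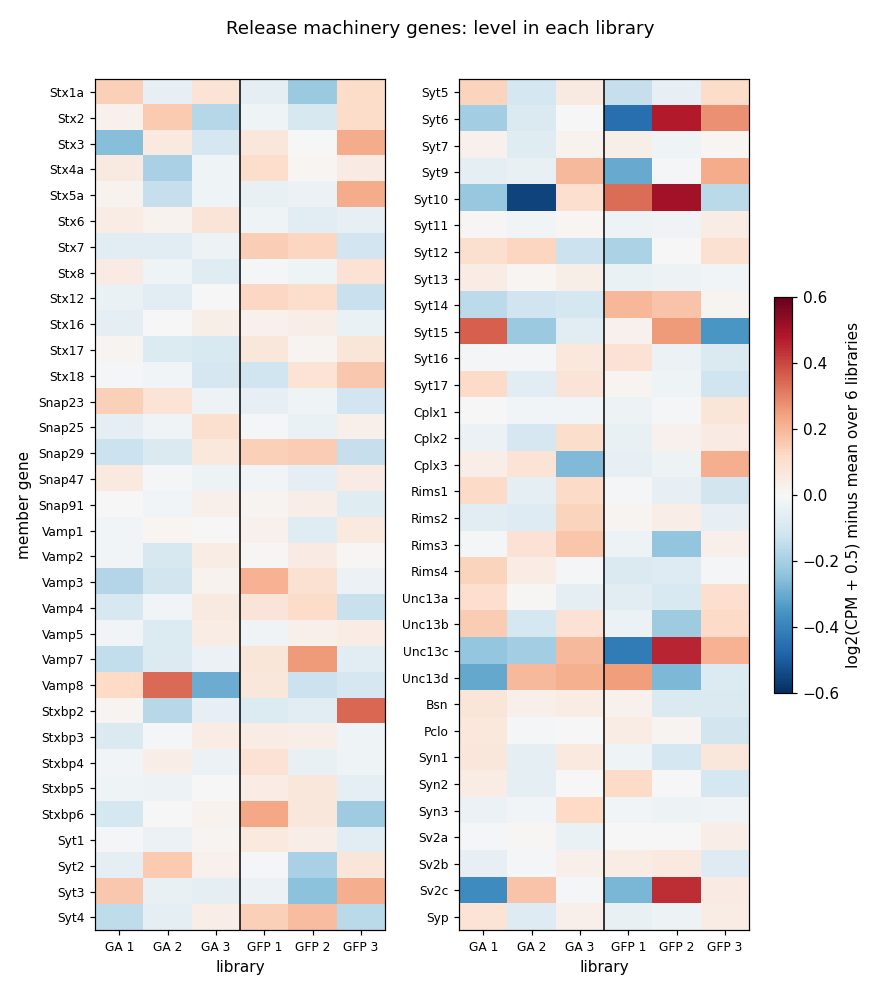
Level of each of the 65 tested members in each library, as log2(CPM + 0.5) minus the gene's mean over the 6 libraries (colour), with AAV-GFP-GA libraries (GA) left of the line and AAV-GFP libraries (GFP) right of it. Most rows are pale, and the strongest colours are in Syt6, Syt10, Unc13c and Sv2c and in low genes such as Syt15.

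Levels per length of transcript differed widely among the members. Snap25, whose product forms part of the fusion complex at the plasma membrane, was highest, with CPM per kilobase of exon of 1781 ± 98.97 with poly-GA and 1764 ± 43.1 without (SD, n = 3 per group). It took 18.6% to 19.95% of all reads of the release machinery in a library. The next were Syp, which encodes the vesicle membrane protein used as a synapse marker, at 518 ± 29.5 with poly-GA and 509 ± 16.9 without, and Vamp2 at 476 ± 23.4 with poly-GA and 489.8 ± 8.34 without. Over the 6 libraries the values per kilobase of Syp spanned 486 to 544 and those of Vamp2 spanned 451 to 499, so these neighbours in the order overlapped. Syt1, Cplx2, Cplx1 and Syn1 followed, and the ranges of Cplx2 and Cplx1 also overlapped. These 7 genes held 58.6% to 59.8% of the reads of the release machinery. The order rests on exon lengths of the basic GENCODE M21 annotation, which may differ from the transcripts that cortex uses. Vamp7 had no length there and has no place in it.

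**Figure D2:**
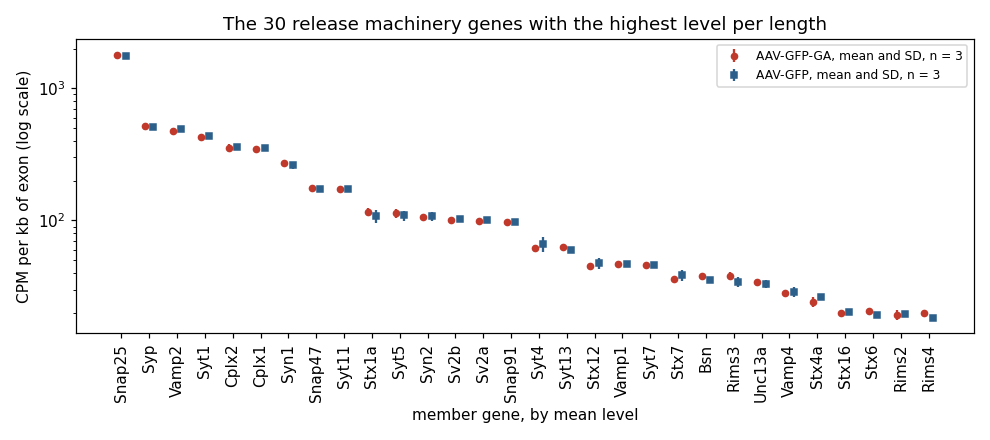
CPM per kilobase of exon (log scale) for the 30 members with the highest level per length, as mean and SD of 3 libraries per group. Snap25 stands alone at the top, and the AAV-GFP-GA (circles) and AAV-GFP (squares) means of each gene lie close together.

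For the SNAREs of fast release the groups overlapped, and none passed the threshold. Snap25 (Entrez gene 20614, chromosome 2, 136713439 to 136782428, mm10) was at 3809, 3899 and 4229 CPM in AAV-GFP-GA cortex, against 3936, 3848 and 4040.1 CPM in AAV-GFP cortex. The groups overlapped. For Snap25 the log2 fold change was 0.01 ± 0.05 (SE), its 95% interval ran from 0.936-fold to 1.09-fold, and its adjusted p was 0.965 by edgeR. Vamp2 (Entrez gene 22318, chromosome 11, 69088528 to 69092381), the main synaptobrevin of cortical terminals, was at 1350.5, 1276 and 1408 CPM with poly-GA and 1369.9, 1412 and 1372 CPM without. The lowest and second highest of these values were both with poly-GA, and the interval was 0.898-fold to 1.05-fold. Stx1a (Entrez gene 20907, chromosome 5, 135023482 to 135051100), a syntaxin of the terminal, was at 267, 234 and 256 CPM with poly-GA and 233, 207 and 261 CPM without. The lowest value of Stx1a was that of AAV-GFP replicate 2, and the groups overlapped. The log2 fold change of Stx1a was 0.11 ± 0.08, with an interval from 0.948-fold to 1.23-fold. With the library set term it was below 0, at -0.05 ± 0.09. Without AAV-GFP replicate 3 it was 0.20, at an unadjusted p under 0.05 by edgeR, without a call.

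Syntaxin-binding proteins and complexins, which regulate the fusion complex, had groups that overlapped. Stxbp2, Stxbp3, Stxbp4, Stxbp5 and Stxbp6 had log2 fold changes between -0.15 and -0.01. Stxbp4, at the upper end, was at 27.6, 28.8 and 27.3 CPM with poly-GA and 29.7, 27.1 and 27.5 CPM without. The lowest was that of Stxbp2, which serves granule release in immune cells, at 20.7, 18.1 and 19.7 CPM with poly-GA and 19.3, 19.5 and 26.2 CPM without. The value of AAV-GFP replicate 3 stood above the other 5. With the library set term, which rests on that library, the log2 fold change of Stxbp2 was -0.42 ± 0.10, without a call. In that fit Stxbp3 was at 0.01, Stxbp4 at 0.02, Stxbp5 at 0.03 and Stxbp6 at 0.19, all above 0. Cplx1 (Entrez gene 12889, chromosome 5, 108518554 to 108550027) and Cplx2 (Entrez gene 12890, chromosome 13, 54301964 to 54383923) are the complexins of most forebrain synapses. Cplx1 was at 765, 757 and 757 CPM with poly-GA and 749, 759 and 806 CPM without. Cplx2 was at 1723, 1646 and 1898 CPM with poly-GA and 1713, 1801 and 1830.2 CPM without. Libraries without poly-GA were the more spread for Cplx1 and those with poly-GA for Cplx2, and the intervals were 0.912-fold to 1.06-fold and 0.900-fold to 1.08-fold. Cplx3, a complexin of retina and of deep cortical neurons, was at 17.2, 17.8 and 13.8 CPM with poly-GA and 16.2, 16.4 and 19.5 CPM without, and its log2 fold change of -0.09 ± 0.12 was the lowest of the 3 tested complexins.

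**Figure D3:**
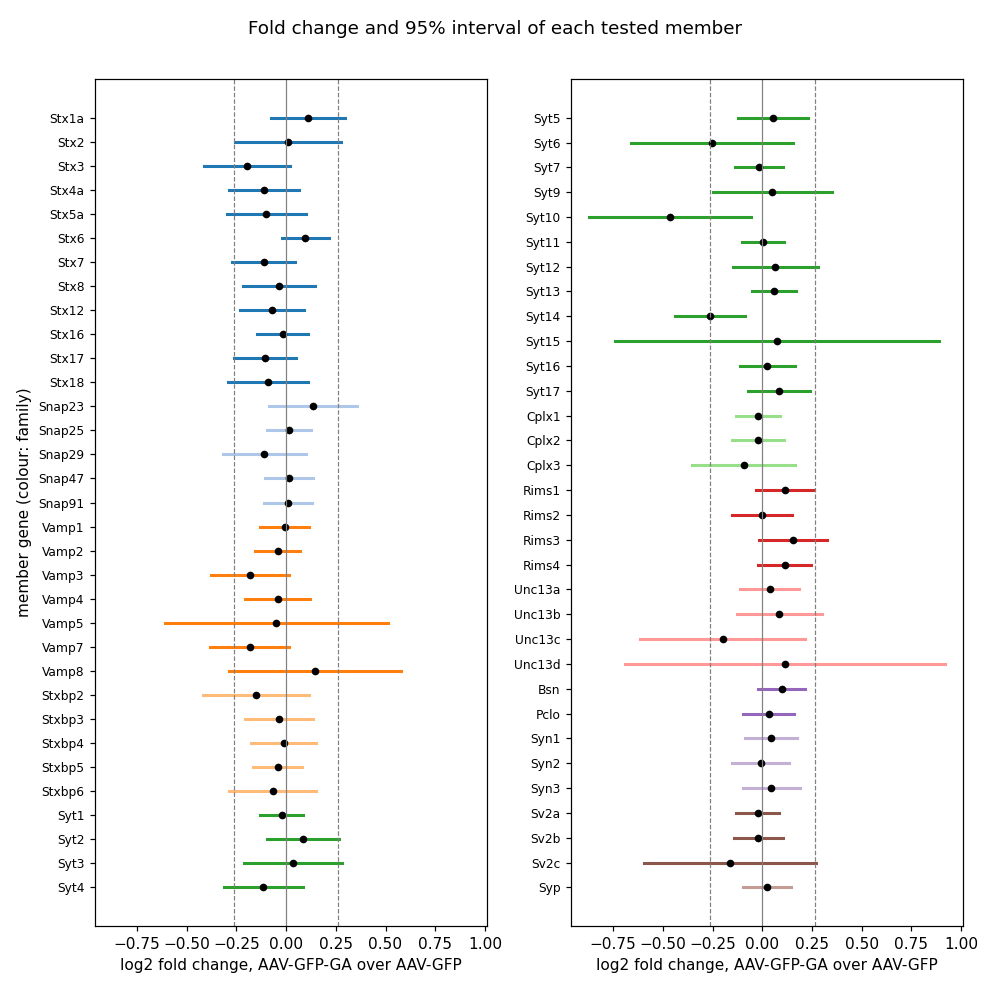
Log2 fold change of AAV-GFP-GA over AAV-GFP (points) with its 95% interval (lines, coloured by family) for the 65 tested members, with dashed lines at a 1.2-fold change. The intervals of 35 members lie between the dashed lines, and those of Syt10 and Syt14 are the intervals that lie wholly below 0.

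At the active zone, log2 fold changes of the RIM, Unc13, Bsn and Pclo genes were above 0 apart from Rims2 and Unc13c, and none passed the threshold. With the library set term those of Unc13a and Unc13b were below 0 and that of Rims2 above 0, and Rims2 was also above 0 with RLE scaling. With the library set term Bsn was at 0.14, Pclo at 0.13 and Rims1 at 0.17, each farther above 0 than in the main fit. Unc13d, with few reads, rose from 0.11 to 0.22, Rims4 fell from 0.11 to 0.06, and Unc13c was at -0.28. Bsn (Entrez gene 12217, chromosome 9, 108096022 to 108190419), the scaffold bassoon, was at 614, 596 and 601 CPM in AAV-GFP-GA cortex, against 595, 549.6 and 549 CPM in AAV-GFP cortex. All 3 values with poly-GA were above all 3 without, by a narrow margin. The log2 fold change of Bsn was 0.10 ± 0.05, with an interval from 0.986-fold to 1.16-fold, and edgeR gave an adjusted p of 0.751. Its partner piccolo, Pclo (Entrez gene 26875, chromosome 5, 14514906 to 14863465), was at 421, 400.1 and 402 CPM with poly-GA and 415, 408 and 374 CPM without, and its groups overlapped. Among the RIM genes, Rims1 (Entrez gene 116837, chromosome 1, 22285972 to 22806158), which ties vesicles and calcium channels to the release site, was at 125, 111 and 125 CPM with poly-GA and 115, 112 and 107 CPM without. Rims3, which encodes a short RIM form, was at 242, 259 and 274 CPM with poly-GA and 239, 207 and 249 CPM without. Rims3 had the highest log2 fold change of all members, at 0.16 ± 0.08, and it fell to 0.05 ± 0.09 with the library set term. Of the 4 RIM genes 3 were above 0, and Rims2 was at 145, 144 and 167 CPM with poly-GA and 154, 156 and 147 CPM without. The log2 fold change of Rims2 was -0.0021.

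Unc13a primes vesicles at most cortical synapses, and its human counterpart is a risk gene of amyotrophic lateral sclerosis and frontotemporal dementia. Unc13a (Entrez gene 382018, chromosome 8, 71624125 to 71671774) was at 371, 347 and 333 CPM in AAV-GFP-GA cortex, against 330.0, 324 and 370.3 CPM in AAV-GFP cortex. The highest of the 6 values, in AAV-GFP-GA replicate 1, was nearly that of AAV-GFP replicate 3. Its log2 fold change was 0.04 ± 0.07, with an interval from 0.925-fold to 1.14-fold, and its sign turned with the library set term, at -0.08 ± 0.07. Gene counts do not show how its transcript was spliced. The log2 fold change of Unc13b was 0.09 ± 0.10, and -0.07 ± 0.11 with the library set term, and Unc13d, a priming factor of immune cell granules, had 10, 18 and 18 reads with poly-GA, against 18, 10 and 13 reads without.

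Syn1, Syn2, Syp, Sv2a and Sv2b, genes of the vesicle membrane and of the vesicle reserve, had overlapping groups and log2 fold changes near 0. Syn1 (Entrez gene 20964, chromosome X, 20860511 to 20920918) and Syn2 (Entrez gene 20965, chromosome 6, 115134902 to 115282626) encode the synapsins that tether vesicles. Syn1 was at 922, 846 and 916 CPM in AAV-GFP-GA cortex, against 864, 818 and 922 CPM in AAV-GFP cortex. Syn2 was at 554, 516 and 537 CPM with poly-GA and 580.3, 538 and 498 CPM without. The groups of both overlapped, and the log2 fold changes were 0.04 ± 0.06 for Syn1, -0.01 ± 0.06 for Syn2 and 0.05 ± 0.07 for Syn3. Syp (Entrez gene 20977, chromosome X, 7638580 to 7653256), which encodes synaptophysin, was at 1409, 1259 and 1357 CPM with poly-GA and 1288, 1302 and 1369.9 CPM without. Its lowest and highest values were both with poly-GA, and its interval was 0.934-fold to 1.11-fold. Sv2a (Entrez gene 64051, chromosome 3, 96181227 to 96195183), the vesicle glycoprotein bound by the antiseizure drug levetiracetam, was at 429, 434 and 420.1 CPM with poly-GA and 431, 430.3 and 443 CPM without. Sv2b (Entrez gene 64176, chromosome 7, 75114894 to 75309262) was at 580.0, 596 and 612 CPM with poly-GA and 619, 625 and 569 CPM without. Both had a log2 fold change of -0.02, and Sv2a had the smaller spread between libraries. Sv2c had a wider interval, from 0.662-fold to 1.21-fold. Syn3 was at 55.2, 55.9 and 61.6 CPM with poly-GA and 55.9, 55.4 and 55.8 CPM without.

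Among synaptotagmins, the calcium sensors of fast release showed no difference past the threshold. Syt1 (Entrez gene 20979, chromosome 10, 108497650 to 109010980), the sensor of most forebrain synapses, was at 2067, 2033 and 2111 CPM in AAV-GFP-GA cortex, against 2173, 2144 and 1992 CPM in AAV-GFP cortex. Its interval, from 0.913-fold to 1.06-fold, was among the narrowest of the members. Syt2, the sensor of many fast inhibitory and hindbrain terminals, was at 74.1, 85.7 and 78.4 CPM with poly-GA and 76.6, 67.1 and 81.1 CPM without, and its groups overlapped. Syt7, the slower sensor of asynchronous release, had a log2 fold change of -0.02 ± 0.05. Syt17 was at 62.7, 55.4 and 61.1 CPM with poly-GA and 58.7, 56.9 and 53.3 CPM without. Its log2 fold change of 0.09 ± 0.07 was the highest of the family, and its groups overlapped. Syt13 was at 238, 233 and 237 CPM with poly-GA and 224, 226 and 229 CPM without. All 3 Syt13 values with poly-GA were above the 3 without, and the log2 fold change was 0.06 ± 0.05 (adjusted p 0.808, edgeR).

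Syt14 and Syt10 were the members with the lowest unadjusted p. Syt14 (Entrez gene 329324, chromosome 1, 192882653 to 193035871), a synaptotagmin that lacks calcium binding, was at 22.9, 23.6 and 23.8 CPM in AAV-GFP-GA cortex, against 29.5, 28.9 and 25.9 CPM in AAV-GFP cortex. All 3 values with poly-GA were below the 3 without. The log2 fold change was -0.26 ± 0.08, with an interval from 0.739-fold to 0.940-fold, an unadjusted p of 0.00690 and an adjusted p of 0.742 (edgeR). Syt10 (Entrez gene 54526, chromosome 15, 89773714 to 89841980), which in mouse olfactory bulb triggers the release of the growth factor IGF-1, was at 23.1, 18.3 and 29.1 CPM in AAV-GFP-GA cortex, against 34.4, 38.7 and 24.2 CPM in AAV-GFP cortex. AAV-GFP replicates 1 and 2 were the highest libraries, and AAV-GFP replicate 3 lay among the AAV-GFP-GA values. The log2 fold change of Syt10 was -0.46 ± 0.18, with an interval from 0.547-fold to 0.960-fold, an unadjusted p of 0.0287 and an adjusted p of 0.742 (edgeR). With the library set term it was -0.04 ± 0.20 for Syt10 and -0.15 ± 0.09 for Syt14. Without AAV-GFP replicate 3 it was -0.64 ± 0.15 and -0.32 ± 0.07, and edgeR gave adjusted p-values of 0.0773 and 0.0705. When any other library was left out, the unadjusted p by edgeR was 0.00576 to 0.131 for Syt10 and 0.0166 to 0.0299 for Syt14. DESeq2 on all libraries gave an unadjusted p of 0.0949 for Syt10 and 0.0197 for Syt14. Over all alternatives the adjusted p ranged from 0.0773 to 0.9999 for Syt10 and from 0.0705 to 0.9999 for Syt14.

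The promoters of Syt10 and Syt14 are shown because these genes had the lowest unadjusted p of the release machinery. Each runs 5′ to 3′ from 250 bases before to 50 bases after the start used in the RefSeq promoter table, on the minus strand of GRCm38.p6, at chr15:89841811-89842110 for Syt10 and chr1:193035726-193036025 for Syt14. These starts lie 120 bases for Syt10 and 96 bases for Syt14 inside the gene spans given above, whose 5′ ends are farther out. Capitals mark GC boxes (GGGCGG), cores of the cyclic AMP response element, CRE (TGACG), and E-boxes (CACGTG), found on either strand, and neighbouring matches may overlap.
Syt10: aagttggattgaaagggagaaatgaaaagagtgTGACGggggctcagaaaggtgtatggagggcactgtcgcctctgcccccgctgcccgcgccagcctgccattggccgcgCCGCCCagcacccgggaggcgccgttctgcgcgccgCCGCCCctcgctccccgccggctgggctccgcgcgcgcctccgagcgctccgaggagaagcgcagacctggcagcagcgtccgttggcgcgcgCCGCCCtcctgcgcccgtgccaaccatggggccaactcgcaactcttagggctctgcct
Syt14: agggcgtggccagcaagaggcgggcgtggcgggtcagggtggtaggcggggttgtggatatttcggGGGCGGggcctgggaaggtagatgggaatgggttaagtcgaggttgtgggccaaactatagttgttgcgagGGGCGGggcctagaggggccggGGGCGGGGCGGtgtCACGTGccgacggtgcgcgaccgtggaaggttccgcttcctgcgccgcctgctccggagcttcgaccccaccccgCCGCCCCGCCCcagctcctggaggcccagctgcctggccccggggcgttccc
The Syt10 window held 3 GC boxes and 1 CRE core, and the Syt14 window held 6 GC boxes and 1 E-box. GC was 70.7% of the bases in Syt10 and 71.3% in Syt14. RefSeq windows were matched by gene identifier for 54 of the 69 members, 69 windows in all. At least 1 GC box was in 65.2% of these, beside 46.2% of 21263 windows of protein-coding genes, and the median ratio of observed to expected CpG was 0.699 beside 0.567. The TATA box (TATAAA) was in 5.80% of member windows beside 12.6%, the E-box in 13.04% beside 7.84%, and the CRE core, which also lies within the full site TGACGTCA, in 20.3% beside 23.6%. A match is a description of the letters and no evidence of binding.

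Unc13c, Syt6, Syt10 and Sv2c varied most among libraries of the same group. Their within-group SD of log2(CPM + 0.5) was between 0.322 and 0.362, where the median over the 61 members with a mean of at least 5 CPM was 0.0825. Syt6 was at 37.7, 41.2 and 43.6 CPM in AAV-GFP-GA cortex, against 31.8, 61.03 and 53.1 CPM in AAV-GFP cortex. Unc13c, the Unc13 form best known from cerebellum, was at 63.1, 64.1 and 84.9 CPM with poly-GA and 55.3, 102 and 85.96 CPM without. Sv2c, the vesicle glycoprotein of basal ganglia, was at 7.27, 10.9 and 9.52 CPM with poly-GA and 7.84, 13.2 and 9.93 CPM without. In Syt6 and Unc13c, AAV-GFP replicate 1 was the lowest library and AAV-GFP replicate 2 the highest, so the AAV-GFP values enclosed all those with poly-GA. The 5 markers of striatal projection neurons (Drd1, Drd2, Adora2a, Ppp1r1b and Rgs9) summed to 487, 462 and 549 CPM with poly-GA and 335, 655 and 712 CPM without. Each of these 5 markers was lowest in AAV-GFP replicate 1 and highest in AAV-GFP replicate 2 or 3. Striatal tissue lies under the cortex, and the part of these markers in the values of Syt6, Unc13c and Sv2c was not tested. The log2 fold changes were -0.25 ± 0.18 for Syt6, -0.20 ± 0.19 for Unc13c and -0.16 ± 0.20 for Sv2c, and edgeR gave adjusted p-values of 0.777, 0.832 and 0.874. Without AAV-GFP replicate 1 the unadjusted p of Syt6 and Unc13c was under 0.05, and neither was called.

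**Figure D4:**
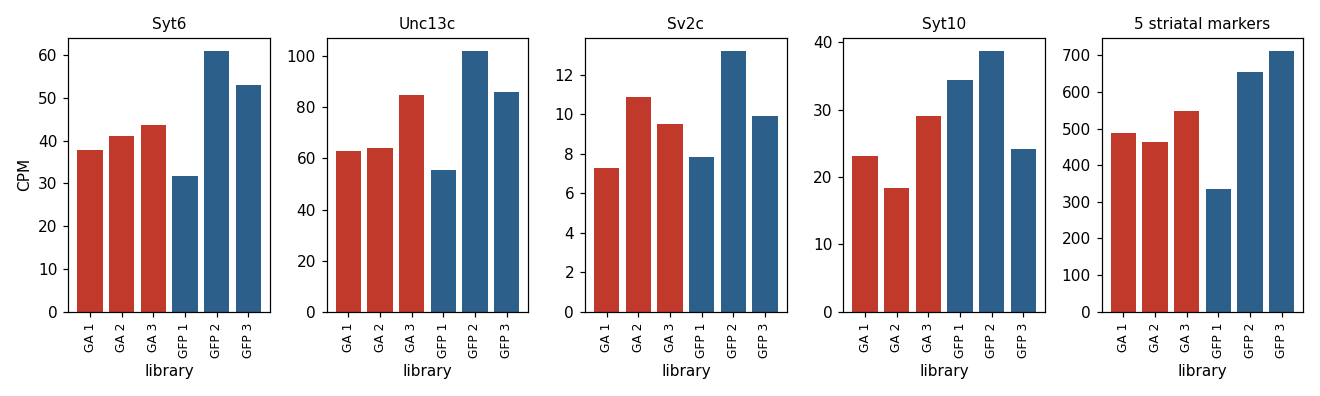
CPM of Syt6, Unc13c, Sv2c and Syt10 and the summed CPM of 5 markers of striatal projection neurons in each library, AAV-GFP-GA in red and AAV-GFP in blue. In Syt6, Unc13c and the markers the first AAV-GFP library is lowest, and in Syt10 it is the second highest.

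SNAREs of endosomes, lysosomes, Golgi and other routes had log2 fold changes below 0 more often than above, and none passed the threshold. Of the 19 tested members of this group 14 were below 0, with a median of -0.07, where the neuronal release core had 13 of 25 below 0 and a median of -0.0021. Among all tested genes 7364 of 14324 were below 0. With the library set term the medians were -0.04 and -0.03. The neuronal release core held Syt1, Syt2, Syt7, Syt9, Stx1a, Snap25, Vamp1, Vamp2, Unc13a, Unc13b, Unc13c, Rims1 and Rims2. It also held Cplx1, Cplx2, Cplx3, Syn1, Syn2, Syn3, Sv2a, Sv2b, Sv2c, Syp, Bsn and Pclo. Vamp3, the synaptobrevin of recycling endosomes, was at 26.6, 27.8 and 30.5 CPM with poly-GA and 34.8, 32.04 and 29.3 CPM without. Vamp7, which serves late endosomes and lysosomes, was at 32.97, 34.6 and 35.7 CPM with poly-GA and 38.5, 43.8 and 34.9 CPM without. For both, AAV-GFP replicates 1 and 2 were the highest libraries, and the unadjusted p was 0.0658 and 0.0660. The same 2 libraries were highest for Stx7 and Stx12, syntaxins of endosomes, for Vamp4 of the trans-Golgi network and for Snap29, which takes part in autophagosome fusion. Snap29 was at 31.5, 32.4 and 35.999 CPM with poly-GA and 38.2, 38.3 and 31.2 CPM without, with a log2 fold change of -0.11 ± 0.10. The log2 fold changes with the library set term were -0.05 ± 0.11 for Vamp3, -0.02 ± 0.10 for Vamp7, 0.06 ± 0.06 for Stx7 and 0.09 ± 0.10 for Snap29. In that fit Stx12 was at 0.099 and Vamp4 at 0.115. For Stx3, Stx4a, Stx5a, Stx8, Stx16, Stx17, Stx18 and Vamp5, also below 0, these libraries were not the 2 highest. With the library set term Stx16 turned to 0.03. Stx17 was then at -0.13, Stx18 at -0.21, Stx4a at -0.10, Stx8 at -0.10 and Vamp5, with few reads, at -0.09. Stx3 and Stx5a, given below, also stayed below 0. In all, AAV-GFP replicates 1 and 2 were the 2 highest libraries for 13 of the 65 tested members, or 20%, and the 2 lowest for 6, or 9.23%, beside 16.7% and 15.3% of all tested genes.

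Stx6, a syntaxin of the trans-Golgi network, was at 97.4, 95.6 and 99.7 CPM with poly-GA and 92.6, 89.9 and 91.2 CPM without. Its groups did not overlap, and its log2 fold change was 0.10 ± 0.05. Stx3, a syntaxin of epithelia and of photoreceptor terminals, was at 22.7, 28.3 and 25.3 CPM with poly-GA and 28.5, 27.1 and 31.8 CPM without. Its log2 fold change of -0.20 ± 0.10 was the lowest of the syntaxins, with an interval from 0.751-fold to 1.01-fold. With the library set term it was -0.32 ± 0.12, at an unadjusted p of 0.0224, and that of Stx5a, a syntaxin of the Golgi, was -0.27 ± 0.09, at an unadjusted p of 0.0111, without a call by edgeR. Snap23, the widely expressed relative of Snap25, was at 12.02, 11.5 and 10.6 CPM with poly-GA and 10.5, 10.6 and 9.99 CPM without. Snap91, which shares the name but encodes a clathrin assembly protein, had a log2 fold change of 0.01 ± 0.05. Vamp8, which serves endosomes and granules and is also found in epithelia, was at 4.86, 5.75 and 3.52 CPM with poly-GA and 4.67, 4.005 and 4.10 CPM without. In the AAV-GFP-GA libraries the 8 genes of intestinal epithelium had 109, 109 and 152 reads, against 37, 34 and 114 in AAV-GFP, and their part in the values of Vamp8 and Stx3 was not tested.

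Reads were too few to test 4 members. Stx19 had 0 reads in all 6 libraries. At the 95% level, 0 reads allow an expected level of up to about 3 reads in a library, or 0.169 to 0.179 CPM. Cplx4 had 0 or 1 read in a library, Syt8 had 0 or 1 read, and Stx11 had between 0 and 6 reads.

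Ratios of paralogues within a library do not depend on how libraries were scaled. The ratio of Vamp1 to Vamp2 reads was 0.140, 0.151 and 0.135 with poly-GA and 0.142, 0.128 and 0.145 without. That of Syt2 to Syt1 was 0.0358, 0.0422 and 0.0371 with poly-GA and 0.0352, 0.0313 and 0.0407 without. The ratio of Syn2 to Syn1 was 0.601, 0.610 and 0.587 with poly-GA and 0.672, 0.657 and 0.540 without, with the AAV-GFP-GA libraries inside the range of the others. In none of the 5 pairs did the groups separate, and the log2 differences were between -0.05 for Syn2 to Syn1 and 0.11 for Syt2 to Syt1. The two-sided exact permutation p was between 0.4 and 1, and the adjusted p over the 5 ratios was 1 for each, where 3 libraries against 3 cannot give a p below 0.1.

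**Figure D5:**
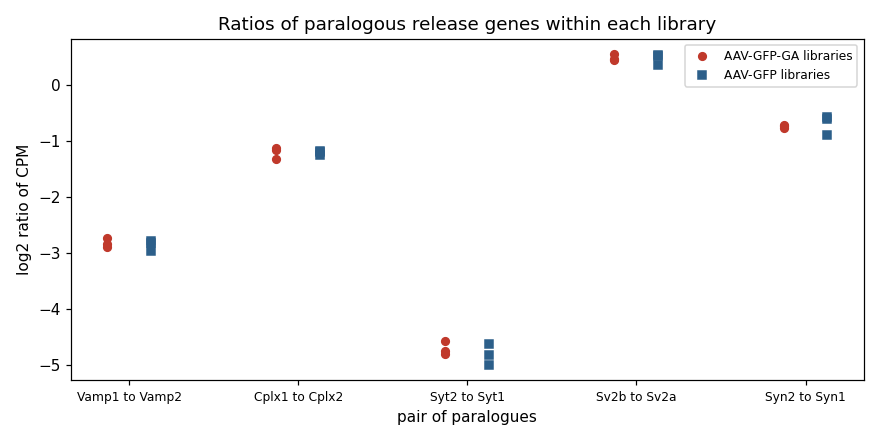
Log2 ratio of CPM between paralogues in each library, for 5 pairs, with AAV-GFP-GA libraries as circles and AAV-GFP libraries as squares. The groups overlap in all 5 pairs.

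Other genes of the nerve terminal gave a like picture. Of 86 genes on 7 lists of vesicle transporters, other vesicle proteins, Rab3 and its effectors, active zone partners, SNARE recycling, endocytosis and presynaptic calcium channels, all were tested and 0 passed by edgeR. At an unadjusted p under 0.05 there were 0 higher and 2 lower, Scamp1 and Cacna1e, beside the 6.64% of all tested genes in either direction and 3.45% lower. The groups did not overlap for 8 of the 86 genes with the AAV-GFP-GA values higher and for 2 with them lower, beside 11.9% of all tested genes in either direction. Scamp1, a carrier protein of vesicle membranes, was at 215, 218 and 229 CPM with poly-GA and 258, 269.6 and 227 CPM without. Cacna1e, the pore of R-type calcium channels, was at 338, 289 and 327 CPM with poly-GA and 360.2, 366 and 338 CPM without. In both genes AAV-GFP replicates 1 and 2 were the 2 highest libraries. Slc17a7, the vesicular glutamate transporter of cortical neurons, was at 1731, 1584 and 1698 CPM with poly-GA and 1527, 1430.3 and 1643 CPM without, with a log2 fold change of 0.12 ± 0.06. Log2 fold changes were 0.15 ± 0.07 for Ppfia3, a liprin of the active zone, 0.15 ± 0.07 for Txlna, which binds syntaxins, and -0.26 ± 0.12 for Slc18a2, the vesicular monoamine transporter. In Slc17a7, Ppfia3 and Txlna AAV-GFP replicates 1 and 2 were the 2 lowest libraries. In Slc18a2 they were neither the 2 highest nor the 2 lowest. The adjusted p of these 6 genes was between 0.742 and 0.746 by edgeR. The median log2 fold change over the 86 genes was 0.01, and the list medians were between -0.02 for Rab3 and its effectors and 0.04 for endocytosis. Summed neuronal markers, 8 genes, were at 4935, 4581 and 4979 CPM with poly-GA and 4876, 4897 and 5105 CPM without, with overlapping groups.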

How the data were processed

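RNA sequencing of cortex gave 6 libraries, 3 per group. The authors deposited a table of expected counts per gene, 1 column per library, not scaled for depth. That these are expected counts was judged from the entries, of which 7.32% to 7.81% in a library were not whole. Bowtie2 2.2.5, RSEM 1.2.12 and mm10 are named, per the submitters' processing notes, without their roles. No source used here states the annotation or the strand setting. Without strand, reads of a gene and its antisense partner cannot be told apart. Exons of 14 members overlap another gene's in GENCODE M21, 13 on the other strand only and 1, Bsn, on the same strand. RSEM shares reads among similar genes, and 3 members (Stx18, Syt6 and Syt11) had counts that were not whole. A row with no gene name, 1 in all, held no reads and was left out, and 25 symbols turned into dates were restored from the identifiers. Coordinates come from RefSeq GRCm38.p6, the build also called mm10, which held 18162 of the 18283 identifiers.

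Expected counts were rounded, filtered by filterByExpr to 14324 genes and normalised by TMM (scaling factors 0.991 to 1.01). The groups were compared by edgeR's quasi-likelihood test (edgeR 4.0.16, R 4.3.3) with group as the sole term, and p-values were adjusted by the Benjamini-Hochberg method over the 14324 genes, with a threshold of 0.05. The method was tested on simulated data with planted changes larger than that of any member and no split among AAV-GFP libraries. That test does not show how changes of the members' size would be recovered. DESeq2 1.42.0 and limma-voom (limma 3.58.1), other filters and scalings, a replicate block, a library set term and leaving out each library were alternatives. The common biological coefficient of variation was 7.92%. The chi-square of counts between any 2 libraries was at least 3.25 per degree of freedom, more than sampling noise gives. All 6 were therefore kept as separate samples, which does not show that they came from separate animals. The members and lists were chosen with earlier results of these data known, so no test was made over a list. Named with the value in every library were the core release genes, members at an unadjusted p under 0.05 and the highest and lowest of each family. These core release genes were Syt1, Stx1a, Snap25, Vamp2, Unc13a, Rims1, Cplx1, Cplx2, Syn1, Syn2, Sv2a, Sv2b, Syp, Bsn and Pclo. The neuronal release core is the wider set of 25 tested genes listed with the endosomal SNAREs. Further members are named where they illustrate a pattern among libraries or their groups did not overlap, chosen after their values were seen. RefSeq promoter sequences were used for 54 members. The symbol rule gave 71 members, of which 2, and 1 marker gene, are not reported here and enter no count, sum or figure of members or markers.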

Additional observations from a re-analysis of the deposited data

How the results depend on the processing

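Members called by edgeR, DESeq2 or limma-voom were 0 under the main settings and all 13 alternatives. The number of members at an unadjusted p under 0.05, 2 in the main setting, ranged from 2 to 12 when libraries were left out, with 12 without AAV-GFP replicate 3. Among all tested genes the 3 calls became 10 with DESeq2 and 9 with the library set term, and 2 to 72 when libraries were left out, with 72 without AAV-GFP replicate 3. No pairing by replicate number was seen, though 3 same-numbered pairs are too few to exclude one. Deviations of same-numbered libraries from their group means correlated at 0.1042, -0.1208 and 0.0652, and AAV-GFP-GA replicate 2 correlated best with AAV-GFP replicate 1, at 0.1404. With the replicate block 2 genes and 0 members were called. The median log2 fold change of members stayed between -0.0288 with the library set term and -0.0023 without AAV-GFP replicate 1. Of the 32 genes named by rule, 21 changed sign in at least 1 alternative and 11 in none. No named gene was called in any. With the library set term the log2 fold changes that turned were 0.0553 for Syt1, -0.0489 for Stx1a, -0.0219 for Snap25, -0.0802 for Unc13a, -0.0438 for Syn1, 0.1041 for Syn2, 0.0660 for Sv2b, -0.0301 for Syp, 0.0521 for Rims2, 0.0196 for Stxbp4 and 0.0921 for Snap29. Rims2 was 0.0003 with RLE size factors and with DESeq2. When libraries were left out, ranges that crossed 0 were -0.0577 to 0.0014 for Syt1, -0.0302 to 0.0461 for Snap25, -0.0043 to 0.1021 for Unc13a, -0.0431 to 0.0132 for Cplx1, -0.079 to 0.0233 for Cplx2, -0.059 to 0.048 for Syn2, -0.0591 to 0.0048 for Sv2b, -0.0116 to 0.0673 for Syp, -0.0108 to 0.0614 for Pclo, -0.1595 to 0.0132 for Cplx3, -0.0712 to 0.0352 for Rims2, -0.2274 to 0.0095 for Stxbp2, -0.0367 to 0.0299 for Stxbp4, -0.3256 to 0.0532 for Sv2c, -0.003 to 0.0773 for Syn3, -0.0586 to 0.3712 for Unc13d, -0.4117 to 0.0001 for Unc13c and -0.0216 to 0.3202 for Vamp8. The log2 differences of ratios likewise ran from -0.0156 to 0.0717 for Vamp1 to Vamp2, -0.0408 to 0.0616 for Cplx1 to Cplx2, -0.0521 to 0.0369 for Sv2b to Sv2a and -0.1496 to 0.0073 for Syn2 to Syn1. The cause of these changes was not tested. Where a library is left out, the fit assumes that the remaining libraries of its group vary like the others. Depth limits the statements on Stx19, Cplx4, Syt8, Stx11, Syt15, Unc13d and Vamp5, which had few or no reads.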
